A study of Mus musculus with 17 samples.

Results

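Granzymes are serine proteases that cytotoxic T cells and natural killer (NK) cells store in secretory granules, and perforin is the protein of the same granules that opens pores in the membrane of a target cell so that granzymes can enter it. The genes described here are Gzma, Gzmb, Gzmc, Gzmd, Gzme, Gzmf, Gzmg and Gzmk, which encode 8 granzymes, and Prf1, which encodes perforin. They are 9 of the 19938 genes measured. The 9 genes were picked by name with their levels in tumours and normal tissue already known, so every difference between those groups is given for them as a description, without a test. Each of the 9 genes had 1 probe set, and all values are log2 RMA levels, on which a difference of 1 is a doubling.

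Each of 17 mouse mammary RNA samples was read on its own Affymetrix Mouse Gene 1.0 ST array, and all mice were of mixed strain background. Of the 9 tumours with deletion of Rb and p53, 7 arose with Cre under a promoter of mouse mammary tumour virus (MMTV-Cre), which is active in mammary epithelium but not exclusively there. Among these 7, replicate 1 is labelled nulliparous, replicate 2 parous and replicates 3 to 7 transplants. The 2 remaining Rb/p53 tumours, labelled Ad-CMVcre, came from cells given Cre by an adenovirus under the cytomegalovirus promoter, and both are also labelled transplants. The 3 tumours with deletion of p53 arose with MMTV-Cre, and the 5 normal mammary samples came from mice of the Rbp53 line, whose Cre status is not stated. Age is not stated for any group, and the host of the transplants is not stated either. The tumours are described as independent, but the labels do not say whether each normal sample was a separate animal, so the spread among normal samples may be partly technical.

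For p53 replicate 3 the title gives the Rb/p53 model but source name, description and tissue give p53, and it was kept with p53. The p53 replicate 2 array stood apart from the rest: its highest correlation with any other array was 0.915, whereas the other 16 arrays correlated with each other at 0.929 or more. The first quartile of all probe sets lay between 6.37 and 6.80 on the 17 arrays, and levels below it are called below the first quartile; probe sets differ in brightness, so this says only that a gene was dim on its array. As a check of the tissue, the mean of 12 mammary epithelial markers was 10.8 to 11.1 in normal samples, 8.04 to 9.77 in Rb/p53 tumours and 8.03 to 9.09 in p53 tumours. The mean of 8 adipocyte markers was 12.6 to 13.1 in normal samples and 7.47 to 8.77 over all 12 tumours. In bulk tissue, fewer cells of a type and less RNA per cell cannot be told apart.

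Granzyme B cuts proteins after aspartate and activates caspases, and granzymes A and K are tryptases. Granzymes C to G are additional mouse family members without a human counterpart, known in the mouse from activated cytotoxic lymphocytes and, for granzymes D to G, from NK cells of the pregnant uterus. In the mouse gene table the genes Gzme, Gzmd, Gzmg, Gzmn, Gzmf, Gzmc and Gzmb follow one another in that order on chromosome 14, with the mast cell protease genes Mcpt4 and Mcpt8 and the cathepsin G gene Ctsg before Gzme and the ATPase gene Atp12a after Gzmb. Gzma and Gzmk lie on chromosome 13 and Prf1 on chromosome 10.

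The promoters of the chromosome 14 members are shown because 5 of them, Gzmc, Gzmd, Gzme, Gzmf and Gzmg, were dim in normal tissue and higher in every Rb/p53 tumour and share a run of bases that the Gzmb window lacks. The windows hold 250 bases before and 50 bases from the annotated start, read from RefSeq on GRCm38.p6, 5′ to 3′ on the minus strand. They are chr14:56132544-56132843 for Gzmd, chr14:56120576-56120875 for Gzme, chr14:56211358-56211657 for Gzmf, chr14:56159530-56159829 for Gzmg, chr14:56234608-56234907 for Gzmc and chr14:56262285-56262584 for Gzmb. Capitals mark the longest run of bases that Gzmc, Gzmd, Gzme, Gzmf and Gzmg share, 20 bases long, and Gzmb has no capitals because the run is not in its window.
Gzmd: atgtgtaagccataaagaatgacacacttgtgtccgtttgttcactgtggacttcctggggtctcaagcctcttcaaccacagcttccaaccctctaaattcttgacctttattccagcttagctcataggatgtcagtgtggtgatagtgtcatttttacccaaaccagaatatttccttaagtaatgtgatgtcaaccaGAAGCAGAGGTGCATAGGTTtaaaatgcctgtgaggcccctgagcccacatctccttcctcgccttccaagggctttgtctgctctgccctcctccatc
Gzme: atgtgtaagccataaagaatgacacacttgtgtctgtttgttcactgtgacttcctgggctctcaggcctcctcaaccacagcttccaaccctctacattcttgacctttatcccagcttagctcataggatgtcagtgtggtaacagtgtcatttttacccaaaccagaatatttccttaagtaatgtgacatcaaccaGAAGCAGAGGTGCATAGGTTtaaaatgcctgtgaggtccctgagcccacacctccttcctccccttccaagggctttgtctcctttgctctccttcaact
Gzmf: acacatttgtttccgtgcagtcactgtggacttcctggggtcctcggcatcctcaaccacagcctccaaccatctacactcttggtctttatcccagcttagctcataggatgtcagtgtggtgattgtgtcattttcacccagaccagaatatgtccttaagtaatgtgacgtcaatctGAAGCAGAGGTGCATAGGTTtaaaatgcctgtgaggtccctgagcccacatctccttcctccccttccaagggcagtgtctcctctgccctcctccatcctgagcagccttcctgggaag
Gzmg: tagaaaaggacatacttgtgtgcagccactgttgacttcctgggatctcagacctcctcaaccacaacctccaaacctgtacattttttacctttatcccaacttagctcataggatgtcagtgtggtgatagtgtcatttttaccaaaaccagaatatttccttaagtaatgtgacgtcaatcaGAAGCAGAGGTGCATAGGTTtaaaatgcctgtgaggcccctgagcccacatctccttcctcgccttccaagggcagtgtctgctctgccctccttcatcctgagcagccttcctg
Gzmc: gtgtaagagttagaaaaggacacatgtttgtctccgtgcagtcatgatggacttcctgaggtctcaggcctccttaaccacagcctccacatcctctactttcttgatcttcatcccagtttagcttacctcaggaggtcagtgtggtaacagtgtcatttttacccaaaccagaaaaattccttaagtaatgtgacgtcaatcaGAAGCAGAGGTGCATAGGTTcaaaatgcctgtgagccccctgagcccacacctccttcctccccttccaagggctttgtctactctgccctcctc
Gzmb: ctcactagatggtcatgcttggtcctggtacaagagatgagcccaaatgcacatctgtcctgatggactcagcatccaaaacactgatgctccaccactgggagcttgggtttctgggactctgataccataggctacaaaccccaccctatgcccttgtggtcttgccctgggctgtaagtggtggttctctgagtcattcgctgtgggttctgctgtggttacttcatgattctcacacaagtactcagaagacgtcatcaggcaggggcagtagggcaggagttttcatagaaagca

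The capitalised run was found in 5 of 32851 mouse promoter windows of this length, a share of 0.0152%, and these were the windows of Gzmc, Gzmd, Gzme, Gzmf and Gzmg. Its first base lay 45 bases before the start in Gzmc, 49 in Gzmd, 50 in Gzme, 70 in Gzmf and 65 in Gzmg. Among Gzmd, Gzme, Gzmf and Gzmg the run extended further, to 36 shared bases. The aligned windows of these 4 genes were 76.3% to 93.4% identical over 6 pairs, with Gzmd and Gzme the closest pair. Gzmc was 73.5% to 82.7% identical with each of the 4, and the 26 pairs that involve Gzma, Gzmb, Gzmk or Prf1 were 40.3% to 50% identical. The core motif of Runx factors, ACCACA, was present in 8 of the 9 members' windows and in 16.8% of all windows, with 2 sites in each of Gzmb, Gzmc, Gzmd, Gzme, Gzmf and Gzmg. The cAMP response element TGACGTCA was present in the windows of Gzmc, Gzmf and Gzmg and in 1.79% of all windows. The AP-1 motif TGANTCA was present in the Gzmb window alone among members and in 7.81% of all windows. All 3 motifs were searched on both strands, and no matches overlapped in the members' windows. A match describes the sequence and says nothing of factor binding.

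Granzymes C to G were dim in normal tissue and higher in Rb/p53 tumours. In the 5 normal samples all 5 genes lay below the first quartile on every array. In all 9 Rb/p53 tumours each of the 5 genes was above every normal sample, and the p53 tumours lay above normal tissue in Gzmc, Gzmd and Gzme and partly among the normal samples in Gzmf and Gzmg. These are 5 of 9 members, beside 7.90% of the 19938 genes with every Rb/p53 tumour above every normal sample, and since the genes were chosen with these levels known, nothing is read from the 2 shares.

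**Figure D1:**
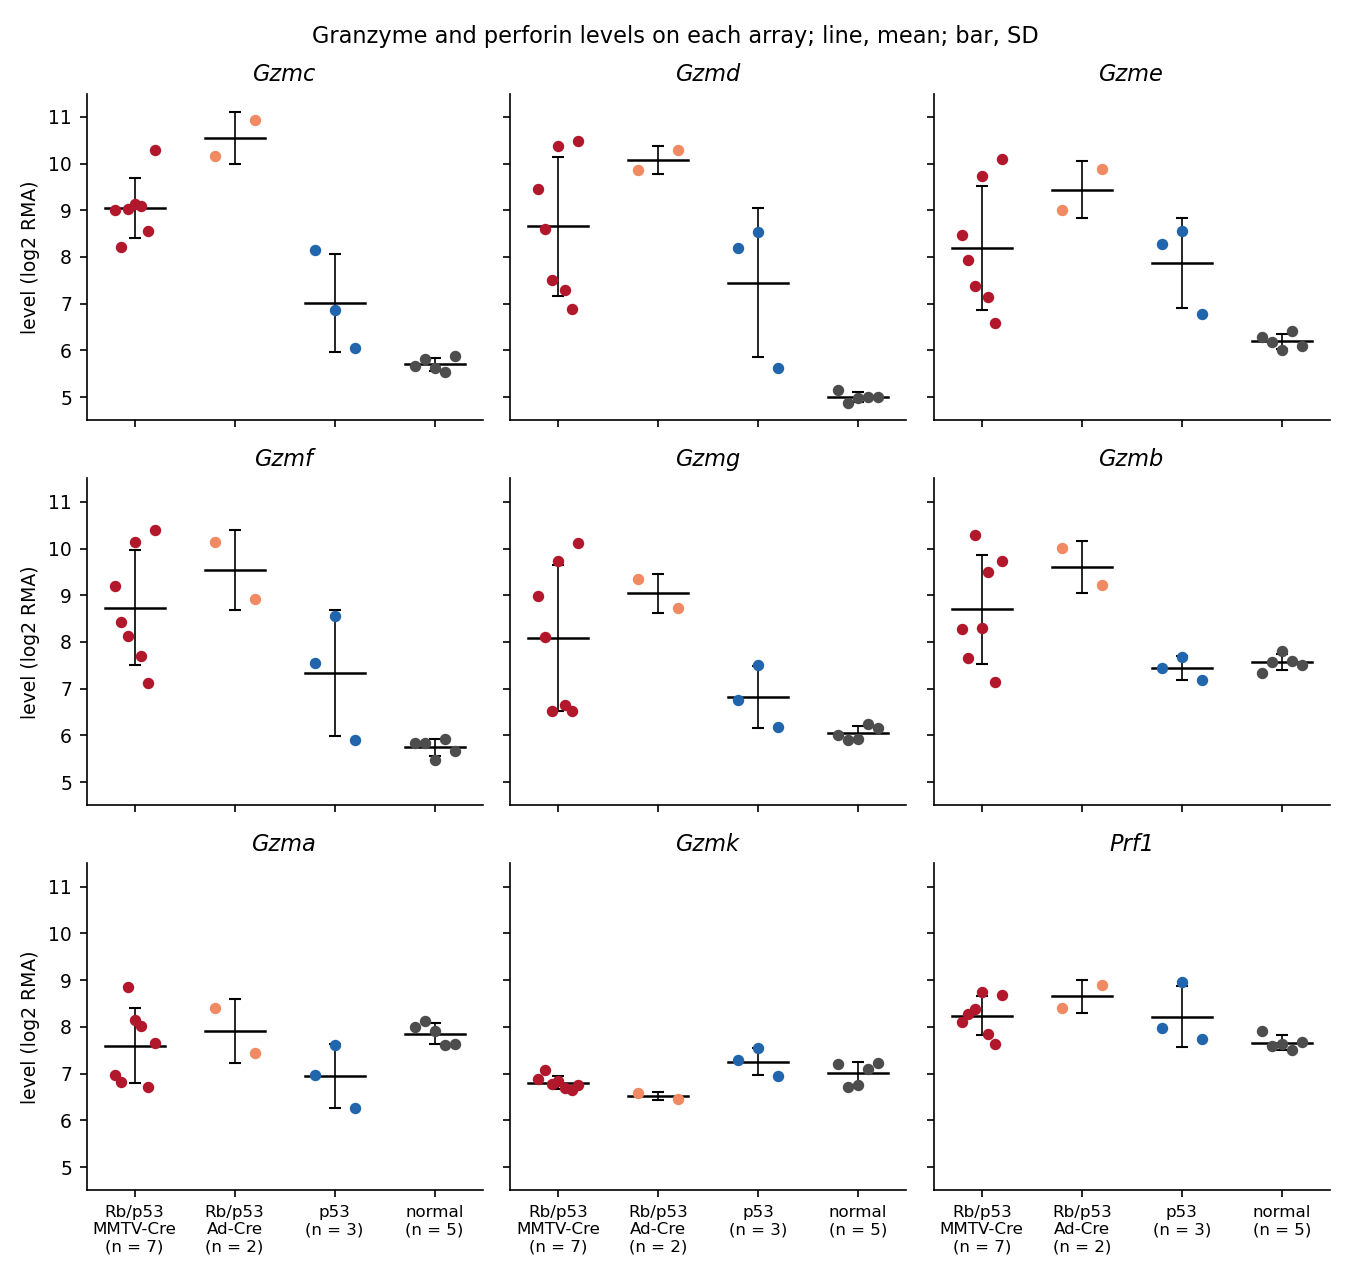
Level of each of the 9 genes (log2 RMA, vertical axis) in each sample of the 4 groups; points are single arrays, horizontal lines are group means and bars are SDs. Normal samples of Gzmc, Gzmd, Gzme, Gzmf and Gzmg lie between 4.87 and 6.41, and all Rb/p53 tumours lie above the normal samples of the same gene.

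Gzmc encodes granzyme C, a protease that kills target cells by a route that does not need caspases. Its level in the normal samples was 5.67, 5.82, 5.63, 5.53 and 5.88. In the 7 MMTV-Cre Rb/p53 tumours it ran from 8.21 to 10.29 with a median of 9.03, and in the 2 Ad-Cre tumours it was 10.16 and 10.94. The tumours of both Cre routes were all well above normal tissue, and Gzmc was the member whose lowest Rb/p53 tumour lay farthest above the highest normal sample. The p53 tumours read 8.14, 6.85 and 6.05, so that all 3 were above normal tissue and all 3 were below the lowest Rb/p53 tumour. The mean difference from normal tissue was 3.67 ± 0.40 (SE) for Rb/p53 tumours and 1.31 ± 0.53 for p53 tumours.

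Gzmd had the largest mean difference between Rb/p53 tumours and normal tissue of the 9 genes. Its normal samples read 5.15, 4.87, 4.997, 5.0 and 5.01. The MMTV-Cre Rb/p53 tumours ran from 6.89 to 10.47 with a median of 8.60, and the Ad-Cre tumours read 9.87 and 10.29. The Rb/p53 tumours spread over more than 3 log2 units, with MMTV-Cre replicates 3, 5 and 6 at the low end and MMTV-Cre replicates 4 and 7 with both Ad-Cre tumours at the high end. The p53 tumours read 8.19, 8.53 and 5.63, of which the first 2 overlapped the Rb/p53 tumours and replicate 3 was close to normal tissue. The mean difference from normal tissue was 3.97 ± 0.63 (SE) for Rb/p53 tumours and 2.45 ± 0.83 for p53 tumours, and the latter was 3.36 without p53 replicate 3.

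Gzme, the neighbour of Gzmd, showed nearly the same order of tumours. Its normal samples read 6.29, 6.19, 6.0, 6.41 and 6.10. The MMTV-Cre tumours ran from 6.58 to 10.10 with a median of 7.93, and the Ad-Cre tumours read 9.01 and 9.88. The lowest tumour, MMTV-Cre replicate 6, lay just above the highest normal sample, while the highest was MMTV-Cre replicate 7. The p53 tumours read 8.28, 8.57 and 6.78, all above normal tissue and all inside the range of the Rb/p53 tumours. The mean differences from normal tissue were 2.27 ± 0.53 (SE) for Rb/p53 and 1.68 ± 0.70 for p53 tumours.

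Gzmf and Gzmg repeated this order in MMTV-Cre replicates 4 and 7, which were the 2 highest tumours for both genes. Gzmf read 5.83, 5.83, 5.47, 5.92 and 5.66 in normal tissue. In MMTV-Cre Rb/p53 tumours it ran from 7.13 to 10.40 with a median of 8.42, and in Ad-Cre tumours it read 10.14 and 8.93. All Rb/p53 tumours were above normal tissue by more than 1 log2 unit, and of the p53 tumours, at 7.56, 8.56 and 5.90, replicate 3 lay within the normal range. Gzmg read 6.01, 5.91, 5.93, 6.24 and 6.16 in normal tissue, from 6.51 to 10.13 with a median of 8.10 in MMTV-Cre tumours, and 9.34 and 8.73 in Ad-Cre tumours. Its p53 tumours read 6.75, 7.51 and 6.19, the last again within the normal range. Mean differences from normal tissue were 3.17 ± 0.52 (SE) for Gzmf and 2.25 ± 0.57 for Gzmg in Rb/p53 tumours, against 1.60 ± 0.68 and 0.77 ± 0.74 in p53 tumours. Gzmd, Gzme, Gzmf and Gzmg are close paralogs, and how far a probe set of this array reads RNA of a neighbouring paralog was not tested, since probe sequences were not used here.

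Other genes of the locus gave different patterns. Gzmn, a granzyme gene between Gzmg and Gzmf that is known in the mouse from testis, stayed below the first quartile on all arrays, at 5.03 to 5.50 in Rb/p53 tumours, 4.96 to 5.34 in p53 tumours and 4.98 to 5.23 in normal tissue. Its difference between Rb/p53 tumours and normal tissue was 0.11 ± 0.09 (SE, adjusted p = 0.444 in limma). Mcpt4, a chymase of connective tissue mast cells, was highest in normal tissue, where it read 10.68 to 11.11, against 5.73 to 10.18 in Rb/p53 tumours. Atp12a, on the other flank, read 5.90 to 6.58 in Rb/p53 tumours and 6.19 to 6.49 in normal tissue.

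**Figure D2:**
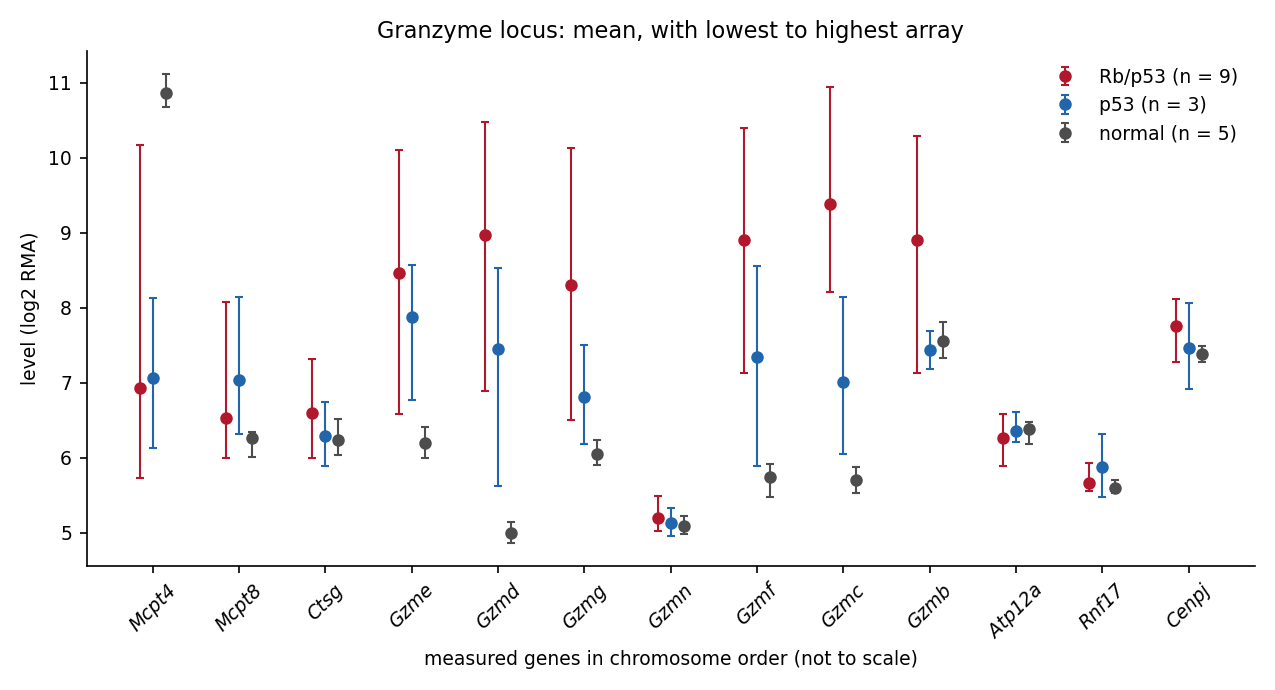
Levels (log2 RMA, vertical axis) of the measured genes of the granzyme locus, placed in chromosome order with equal spacing; points are group means and bars run from the lowest to the highest array. Gzme, Gzmd, Gzmg, Gzmf and Gzmc have Rb/p53 means between 8.30 and 9.38 and normal means between 5.0 and 6.2, while Gzmn between them has means of 5.2 and 5.09.

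Gzmb, the last granzyme of the locus, was above every normal sample in some Rb/p53 tumours and not in others. Normal samples read 7.33, 7.57, 7.81, 7.60 and 7.50. MMTV-Cre Rb/p53 tumours ran from 7.14 to 10.29 with a median of 8.30, and Ad-Cre tumours read 10.002 and 9.21. MMTV-Cre replicates 2 and 6 lay within or below the normal range, while replicates 3, 5 and 7 and both Ad-Cre tumours were above 9. The p53 tumours, at 7.44, 7.69 and 7.19, all lay within or just below the normal range. The mean difference from normal tissue was 1.34 ± 0.43 (SE) for Rb/p53 tumours and -0.12 ± 0.57 for p53 tumours.

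Gzma and Gzmk, the tryptases on chromosome 13, did not lie above normal tissue as groups. Gzma read 7.99, 8.12, 7.92, 7.61 and 7.63 in normal tissue. In MMTV-Cre Rb/p53 tumours it ran from 6.71 to 8.85 with a median of 7.66, and in Ad-Cre tumours it read 8.40 and 7.43. Rb/p53 tumours therefore lay on both sides of normal tissue, and the p53 tumours, at 6.97, 7.62 and 6.26, were below it or at its lower edge. Gzmk read 7.22, 6.72, 6.75, 7.10 and 7.23 in normal tissue, 6.66 to 7.07 with a median of 6.79 in MMTV-Cre tumours, and 6.58 and 6.46 in Ad-Cre tumours. Its p53 tumours read 7.29, 7.54 and 6.95. Gzmk was the least variable member, with an SD of 0.18 over the 9 Rb/p53 tumours against 1.43 for Gzmd. Mean differences of Rb/p53 tumours from normal tissue were -0.19 ± 0.33 (SE) for Gzma and -0.26 ± 0.12 for Gzmk.

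Prf1 read 7.92, 7.59, 7.64, 7.51 and 7.67 in normal tissue. MMTV-Cre Rb/p53 tumours ran from 7.63 to 8.76 with a median of 8.28, and Ad-Cre tumours read 8.40 and 8.90. All but MMTV-Cre replicates 5 and 6 were above every normal sample. The p53 tumours read 7.97, 8.96 and 7.73, and the high value belonged to replicate 2, the array that stood apart. The mean difference from normal tissue was 0.67 ± 0.22 (SE) for Rb/p53 tumours and 0.56 ± 0.28 for p53 tumours, and the latter was 0.19 without p53 replicate 2.

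Taking the 9 genes as a list, the median of their mean differences was 2.25 between Rb/p53 tumours and normal tissue, where the median of all genes was 0.03. Between p53 tumours and normal tissue it was 0.77, where the median of all genes was 0.09, and it was 0.42 without p53 replicate 2 and 1.08 without p53 replicate 3. Single p53 arrays also moved Gzmc, which differed from normal tissue by 0.75 without p53 replicate 1, and Gzmf and Gzmg, which differed by 0.99 and 0.42 without p53 replicate 2. Without p53 replicate 3 Gzma differed from normal tissue by -0.56. In that comparison 3 of the 9, Gzmc, Gzmd and Gzme, had every tumour above every normal sample, beside 9.87% of all genes. Both comparisons use the same 5 normal samples, so their values are placed side by side and not set against each other.

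Between the tumour genotypes the members' mean levels were higher in Rb/p53 than in p53 tumours for all but Gzmk. Gzmc differed by 2.36 ± 0.55 (SE), Gzmf by 1.57 ± 0.72, Gzmd by 1.52 ± 0.87, Gzmg by 1.49 ± 0.78 and Gzmb by 1.46 ± 0.59. In Gzmc the highest p53 tumour, at 8.14, lay just below the lowest Rb/p53 tumour, at 8.21. How many of all genes part these groups in this way was not counted. Smaller differences were seen for Gzma, 0.72 ± 0.44, Gzme, 0.60 ± 0.74, and Prf1, 0.11 ± 0.29, whereas Gzmk differed by -0.51 ± 0.14. Several of these values rested on p53 replicate 3, whose title names the other genotype. Without it the differences were 1.88 for Gzmc, 0.85 for Gzmf, 0.61 for Gzmd, 1.17 for Gzmg, 1.33 for Gzmb, 0.37 for Gzma, 0.05 for Gzme and -0.14 for Prf1. With it counted as an Rb/p53 tumour, Gzmc differed by 1.55, Gzmb by 1.16, Gzmg by 0.96, Gzmf by 0.55, Gzmd by 0.28 and Gzma by 0.23, and Gzme and Prf1 turned to -0.12 and -0.20. Without p53 replicate 2, the array that stood apart, Gzme differed by 0.94 and Prf1 by 0.48. Prf1 differed by -0.02 without p53 replicate 1, and Gzme by 0.39 without MMTV-Cre replicate 7. The median difference of the 9 members was 1.46 with all arrays, where the median of all genes was -0.03. It was 0.61 without p53 replicate 3 and 0.28 with that tumour counted as Rb/p53.

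Ad-Cre tumours had higher mean levels than MMTV-Cre Rb/p53 tumours for 8 of the 9 members. The differences were 1.5 ± 0.54 (SE) for Gzmc, 1.42 ± 1.01 for Gzmd, 1.25 ± 0.85 for Gzme, 0.95 ± 0.94 for Gzmg, 0.91 ± 0.70 for Gzmb and 0.80 ± 0.87 for Gzmf. Gzma differed by 0.32 ± 0.55, Prf1 by 0.42 ± 0.35 and Gzmk by -0.29 ± 0.15. The Ad-Cre levels lay inside the MMTV-Cre range for Gzma, Gzmb, Gzmd, Gzme, Gzmf and Gzmg. For Gzmc, Ad-Cre replicate 2 was the highest of all tumours while replicate 1 was below MMTV-Cre replicate 7. In Gzmk both Ad-Cre tumours, at 6.58 and 6.46, were below the lowest MMTV-Cre tumour, at 6.66. The share of all genes parted in this way was not counted. Single Ad-Cre arrays moved these values: without replicate 1 the difference was 0.19 for Gzmf, 0.51 for Gzmb, 0.67 for Prf1 and -0.16 for Gzma. Without replicate 2 it was 0.81 for Gzme, 1.41 for Gzmf, 0.80 for Gzma and 0.16 for Prf1.

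The members were set beside Ncr1, which encodes the NK cell receptor NKp46, and Cd3e, which encodes a chain of the T cell receptor complex. Ncr1 read 6.58 to 8.75 with a median of 7.19 in MMTV-Cre Rb/p53 tumours and 8.39 and 9.24 in the Ad-Cre tumours. In p53 tumours it read 6.68, 6.53 and 5.95, and in normal tissue 8.11, 8.03, 8.19, 7.43 and 6.94. In 4 of the 5 normal samples Ncr1 was thus above the MMTV-Cre median, while Gzmc, Gzmd, Gzme, Gzmf and Gzmg were below the first quartile in all 5. Normal replicate 5 was close to MMTV-Cre replicates 1 and 4 in Ncr1, which read 6.87 and 6.88. Cd3e ran from 7.53 to 8.28 over the 9 Rb/p53 tumours, read 8.16, 9.26 and 8.53 in p53 tumours, and read 8.72, 8.55, 8.39, 8.90 and 8.95 in normal tissue. Every Rb/p53 tumour was therefore below every normal sample in Cd3e. MMTV-Cre replicate 3 joined the highest Gzmb and Gzma with a high Ncr1 of 8.75, yet its Gzmg, at 6.51, was the lowest of the Rb/p53 tumours.

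**Figure D3:**
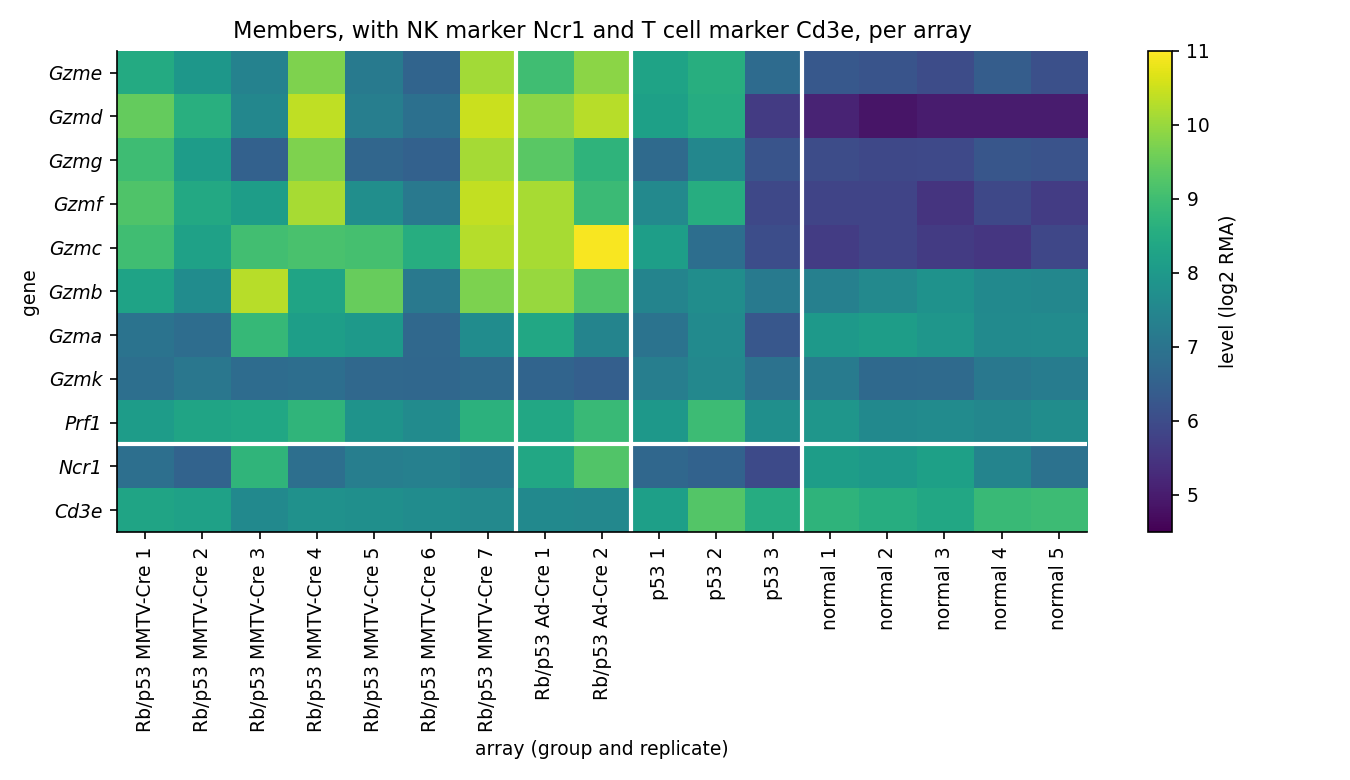
Level (log2 RMA, colour scale) of the 9 members, Ncr1 and Cd3e in rows on each of the 17 arrays in columns, with white lines between groups. MMTV-Cre replicates 4 and 7 and both Ad-Cre tumours are bright across the locus granzymes, MMTV-Cre replicate 3 is bright in Gzmb, and the 5 normal samples are dark from Gzme to Gzmc with Cd3e between 8.39 and 8.95.

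Across the 9 Rb/p53 tumours, Pearson correlations with Ncr1 were 0.65 for Gzmc, 0.62 for Gzmb, -0.75 for Gzmk and between -0.03 and 0.14 for Gzmd, Gzme and Gzmf, with 0.48 for Gzma and 0.36 for Prf1. With Cd3e they were 0.79 for Gzmk, -0.63 for Gzmc, -0.57 for Gzmb, -0.55 for Gzma and -0.28 for Prf1, and between -0.19 and -0.05 for Gzmd, Gzme and Gzmf. Gzmg is left out because it falls into clusters, with the widest gap among Gzmd to Gzmg. These values are descriptive, since the choice of genes used these markers. Marker means that leave Ncr1 and Cd3e out were then tested, with 17 NK cell markers and 18 T cell markers, over 18 relations. Gzmc ran with the NK mean at r = 0.76 (exact permutation p = 0.0175) and Gzmk ran against it at r = -0.76 (exact permutation p = 0.017), with Spearman rho of 0.68 (exact permutation p = 0.0503) and -0.75 (exact permutation p = 0.0255). After Benjamini-Hochberg adjustment over the 18 relations both had p = 0.157 (exact permutation tests, two-sided), so that 0 of 18 passed at 0.05 and 2 of 18 were below 0.05 before adjustment. Without the 2 tumours farthest from the median of the NK mean, r was 0.76 for Gzmc and -0.77 for Gzmk. For Gzmd, Gzme and Gzmf the correlation with the NK mean lay between 0.04 and 0.30, and with the T cell mean between -0.11 and 0.25.

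Among themselves, Gzmd, Gzme and Gzmf ran together across the 9 Rb/p53 tumours. How far the probe sets of these close paralogs read RNA of one another was not tested. The 36 pairs of members were tested with exact two-sided permutation tests and Benjamini-Hochberg adjustment over the 36. Gzmd and Gzme correlated at r = 0.98 (exact p = 5.51e-06, adjusted p = 0.000198) and rho = 0.98 (exact p = 4.96e-05). Gzmd and Gzmf correlated at r = 0.92 (exact p = 0.000967, adjusted p = 0.00852) and rho = 0.95 (exact p = 0.000353). Gzme and Gzmf correlated at r = 0.89 (exact p = 0.00228, adjusted p = 0.0117) and rho = 0.90 (exact p = 0.00203). Without the 2 tumours farthest from the median, r was 0.96, 0.83 and 0.80 for these 3 pairs, so each pair kept its direction and a high correlation. MMTV-Cre replicate 3, which was low in all 3 genes, stayed in each of these checks.

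Gzmg fell into separate clusters, with MMTV-Cre replicates 3, 5 and 6 between 6.51 and 6.65 and the other 6 tumours between 8.10 and 10.13. The same 3 tumours also lay below the other 6 in Gzmd, Gzme and Gzmf. The gap was 1.45 log2 units in Gzmg, 1.10 in Gzmd, 0.55 in Gzme and 0.29 in Gzmf. Correlations of Gzmd, Gzme and Gzmf over all 9 tumours therefore include this split. For Gzmg, correlations are given within the 6 higher tumours only. Within those 6 Gzmg correlated with Gzmf at r = 0.96, with Gzmd at 0.81 and with Gzme at 0.74. In the same 6 tumours Gzmd and Gzme correlated at 0.97, Gzmd and Gzmf at 0.74 and Gzme and Gzmf at 0.64. With 6 tumours the smallest exact p is 0.00139, and 0 of 36 pairs had an adjusted p below 0.05, against 9 of 36 over all 9 tumours, of which 3 involve Gzmg. A single pair at that smallest p has an adjusted p of 0.05 over 36 pairs, so the count of 0 in 6 tumours is no evidence that the pairs ran together less there. The 6 tumours were also picked by the members' own levels.

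**Figure D4:**
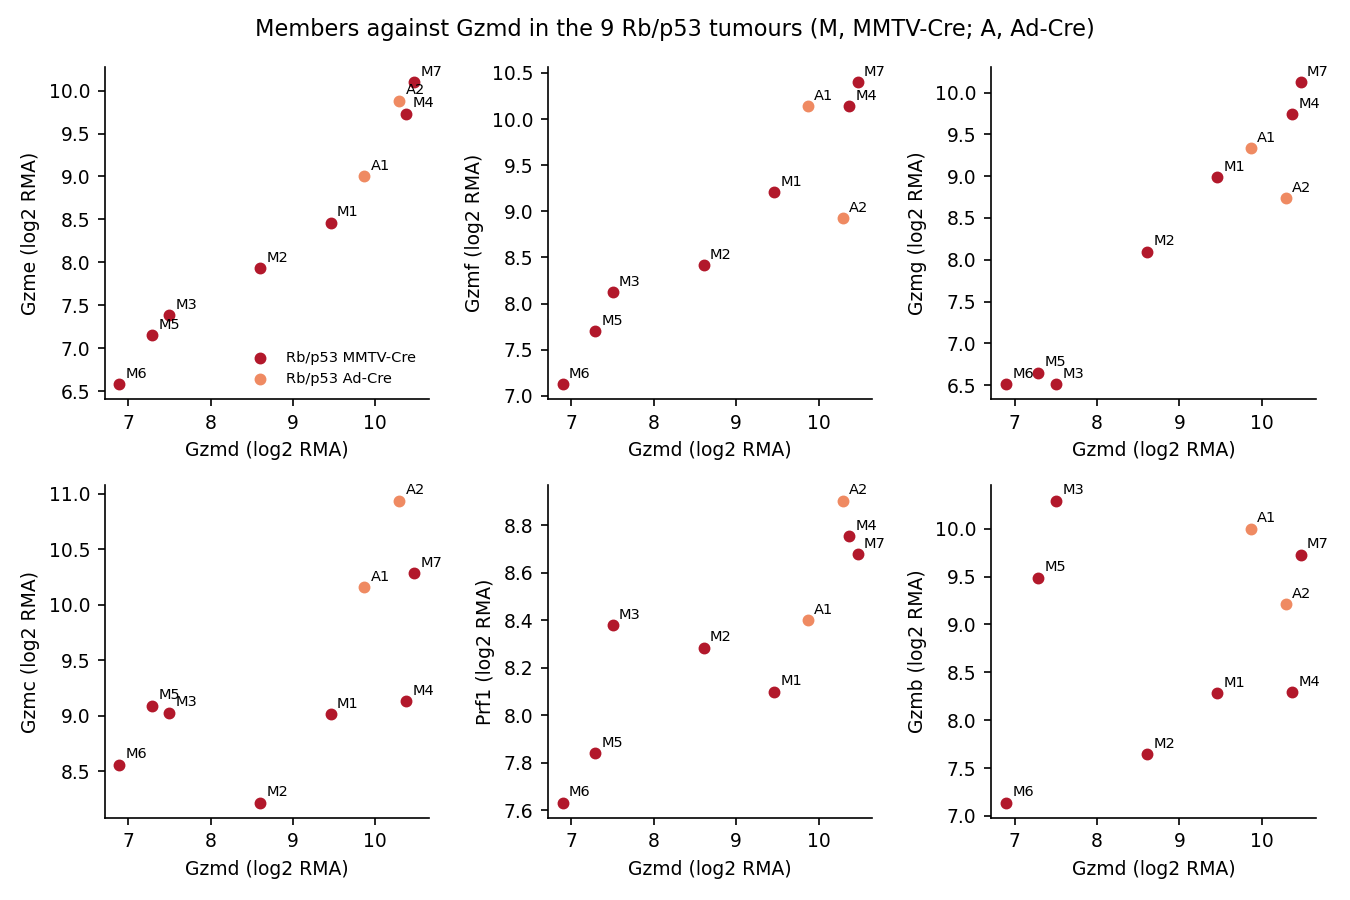
Each panel plots a member (vertical axis, log2 RMA) against Gzmd (horizontal axis, log2 RMA) in the 9 Rb/p53 tumours; M1 to M7 are MMTV-Cre replicates and A1 and A2 Ad-Cre replicates. Gzme and Gzmf rise with Gzmd, and M3, M5 and M6 are the lowest tumours in all 3 genes. Gzmg has the same 3 tumours near 6.5 apart from the other 6, and Gzmb has M3 and M5 high where Gzmd is low.

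Perforin passed with 2 of these genes, Gzmd and Gzme, and not with Gzmf. Prf1 correlated with Gzme at r = 0.89 (exact p = 0.00142, adjusted p = 0.00852) and rho = 0.88 (exact p = 0.00308), and with Gzmd at r = 0.84 (exact p = 0.00585, adjusted p = 0.0263) and rho = 0.87 (exact p = 0.00451). With Gzmf it reached r = 0.74 over the 9 tumours (exact p = 0.0255, adjusted p = 0.0788). Within the 6 tumours that were not low in Gzmg, r was 0.87 with Gzme, 0.77 with Gzmd, 0.38 with Gzmg and 0.30 with Gzmf. Over the 9 tumours without the 2 farthest from the median, r was 0.84 with Gzme and 0.60 with Gzmd. The call for Prf1 with Gzmd held in only 2 of 9 fits that each left out 1 tumour, whereas that for Prf1 with Gzme held in 8 of 9 and that for Gzmd with Gzme in 9 of 9.

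Gzma and Gzmb, on different chromosomes, correlated at r = 0.83 (exact p = 0.00794, adjusted p = 0.0318) and rho = 0.88 (exact p = 0.00308), at r = 0.68 without the 2 farthest tumours, and with a call in 3 of 9 fits that left out 1 tumour. Gzmc reached r = 0.66 with Gzmd, 0.74 with Gzme and 0.55 with Gzmf, none of which passed after adjustment (exact adjusted p of 0.129, 0.0788 and 0.26). Gzmb, on the same locus, reached 0.20 with Gzmd, 0.29 with Gzme and 0.35 with Gzmf. The 9 tumours differ in transplantation and Cre route. Among the 7 labelled as transplants Gzmd and Gzme correlated at 0.99 and Prf1 and Gzme at 0.92, both with an exact adjusted p of 0.0143. Gzmd and Gzmf correlated at 0.92 and Gzma and Gzmb at 0.78 there without passing (exact adjusted p of 0.0684 and 0.146).

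The split of MMTV-Cre Rb/p53 tumours into transplants (n = 5) and others (n = 2) was not part of the choice of genes and was tested in limma over all genes. None of the 9 members passed (0 of 9 at an adjusted p below 0.05, and 1 of 9, Gzmk, at an unadjusted p of 0.0486). Over all genes 0.00502% were higher and 0.0201% lower in transplants. Transplants minus others differed by 0.98 ± 0.50 for Gzma (SE, adjusted p = 0.648), for Gzmb by 1.02 ± 0.81 (adjusted p = 0.739) and for Gzmc by 0.61 ± 0.45 (adjusted p = 0.726). Gzmk differed by -0.23 ± 0.10 (adjusted p = 0.628). Gzmd, Gzme, Gzmf and Gzmg differed by -0.53, -0.01, -0.11 and -0.63, with SEs between 0.95 and 1.19, so differences of 1 log2 unit in either direction could not be resolved for them. The transplants held both the lowest tumours in Gzmd (replicates 3, 5 and 6) and the highest (replicates 4 and 7).

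**Figure D5:**
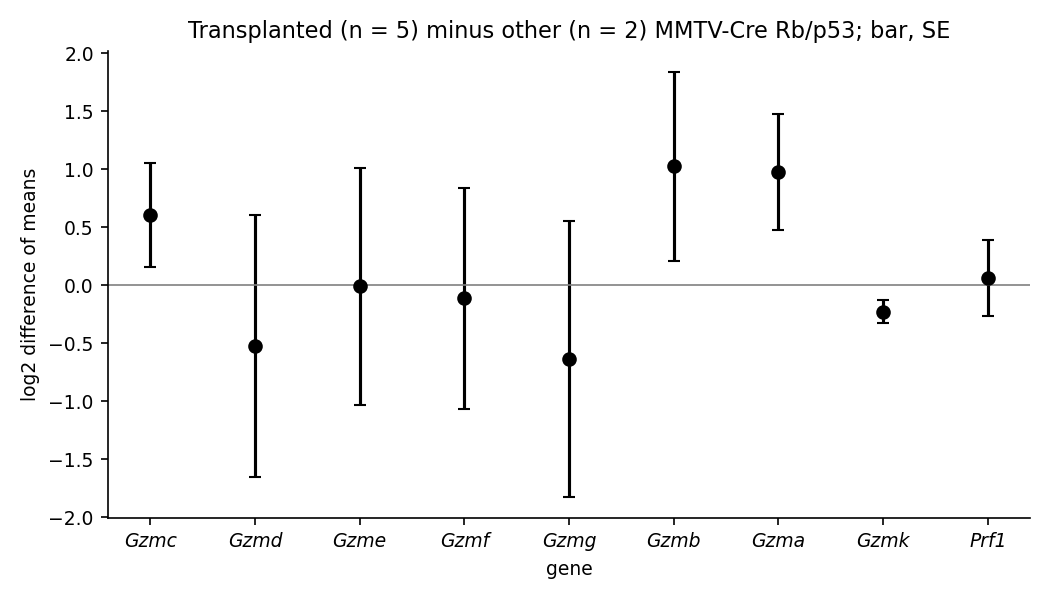
Difference of mean log2 level, transplanted minus other MMTV-Cre Rb/p53 tumours (vertical axis), for each of the 9 members; points are limma estimates and bars are SEs. The estimates run from -0.63 for Gzmg to 1.02 for Gzmb, and none passed the adjusted threshold.

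The other genes of the granule pathway and of the cells that carry it were counted from lists that leave out the 9 members, Ncr1 and Cd3e. Of 179 such genes, 31 passed as higher and 48 as lower against normal tissue in Rb/p53 tumours, at an adjusted p below 0.05 in limma, beside 14.2% of all genes higher and 13.4% lower. In p53 tumours 34 were higher and 30 lower, beside 8.34% and 12.1% of all genes. Without p53 replicate 2, the array that stood apart, 24 were higher and 29 lower, beside 10.4% and 10.8% of all genes in that fit. With any 1 array of this comparison left out, 24 to 38 were higher and 25 to 29 lower. Between Rb/p53 and p53 tumours 0 passed in either direction, with 33 at an unadjusted p below 0.05, and of all genes 0% were higher and 0.00502% lower. Without p53 replicate 3, 1 of the 179 was higher and 10 were lower, beside 4.25% and 2.56% of all genes in that fit. Between Ad-Cre and MMTV-Cre Rb/p53 tumours 0 passed, with 14 at an unadjusted p below 0.05, and of all genes 0.00502% were higher and 0% lower. Without Ad-Cre replicate 1, 2 of the 179 were higher, beside 0.15% of all genes. Between transplanted and other MMTV-Cre tumours 0 passed, with 26 at an unadjusted p below 0.05, and without MMTV-Cre replicate 1 the count was 3 lower, beside 0.732% of all genes.

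Of 16 genes of the granule machinery 2 were higher (12.5%) and 1 lower (6.25%) in Rb/p53 tumours, beside 14.2% and 13.4% of all genes. Their median difference was 0.02, beside 0.03 for all genes. Ctsc, which encodes cathepsin C, the protease that removes the activation dipeptide of granzymes, rose by 0.85 ± 0.23 (SE, adjusted p = 0.00947, limma) in Rb/p53 tumours and by 1.23 ± 0.30 (adjusted p = 0.00713) in p53 tumours. Stx11, a syntaxin of granule release, rose by 0.73 ± 0.10 (adjusted p = 2.445e-05) and 0.95 ± 0.13 (adjusted p = 4.257e-05). Stxbp2, its binding partner in granule fusion, fell by 0.56 in Rb/p53 tumours (adjusted p = 0.0385). Srgn, whose product serglycin packs granzymes in the granule, and Nkg7, a granule membrane protein of cytotoxic cells, differed from normal tissue by 0.05 ± 0.21 and -0.15 ± 0.34 in Rb/p53 tumours, and neither passed (adjusted p of 0.904 and 0.817).

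Genes that act on granzymes, are cut by them or induce them were counted by list. Of all genes, 14.2% were higher and 13.4% lower in Rb/p53 tumours, and 8.34% and 12.1% in p53 tumours. Of 9 inhibitors and uptake receptor genes 0 passed in limma in Rb/p53 tumours, with 1 at an unadjusted p below 0.05, and 0 passed in p53 tumours, with 2. Serpinb9, the intracellular inhibitor of granzyme B, differed by 0.07 ± 0.27 (SE, adjusted p = 0.905) in Rb/p53 and by -0.30 ± 0.36 (adjusted p = 0.571) in p53 tumours. Of 7 genes whose products granzyme B cuts, 2 were higher in Rb/p53 tumours: Mcl1, an anti-apoptotic BCL2 family gene, by 0.44 ± 0.13 (adjusted p = 0.0178), and Dffa, the inhibitor of the caspase-activated DNase, by 0.23 ± 0.08 (adjusted p = 0.0467). In p53 tumours 1 of the 7 was higher, again Mcl1, by 0.50 ± 0.17 (adjusted p = 0.0477). Of 22 inducers and transcription factors of granzyme genes, 5 were higher and 5 lower in Rb/p53 tumours. In p53 tumours 7 of the 22 were higher and 2 lower. In Rb/p53 tumours Runx3, a transcription factor of cytotoxic lymphocytes, rose by 1.24 ± 0.27 (adjusted p = 0.00219). Il18rap, a chain of the interleukin-18 receptor, rose by 1.44 ± 0.39 (adjusted p = 0.0107). Stat5a, a signal transducer of interleukin-2 and prolactin, fell by 1.45 (adjusted p = 4.898e-06). Runx3 and Stat5a also passed in p53 tumours, at 1.52 ± 0.35 (adjusted p = 0.00518) and -1.38 ± 0.22 (adjusted p = 0.000231). Tbx21, which encodes T-bet, differed by -0.25 ± 0.11 in Rb/p53 tumours without passing (adjusted p = 0.101).

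NK cell markers rose in part and T cell markers fell in part in Rb/p53 tumours. Of 17 NK markers 6 were higher (35.3%) and 0 lower, with a median difference of 0.54 beside 0.03 for all genes. Of 18 T cell markers 0 were higher and 6 lower (33.3%), with a median of -0.24. Of all genes, 14.2% were higher and 13.4% lower. Ncr1, left out of the NK count, had a mean of 7.61 in Rb/p53 tumours and 7.74 in normal tissue. Cd3e, left out of the T cell count, had means of 7.77 and 8.70. The NK genes with the largest rises were the receptor gene Klrb1b, by 2.23 ± 0.45 (SE, adjusted p = 0.00129, limma), the adaptor gene Sh2d1b1, by 1.74 ± 0.50 (adjusted p = 0.0145), and the receptor-like kinase gene Styk1, by 0.95 ± 0.21 (adjusted p = 0.00279). The NK receptor chain genes Klrd1 and Klrk1 did not pass, at 0.21 ± 0.29 and 0.00 ± 0.29, and Il2rb, a receptor chain for interleukin-2, differed by 0.44 ± 0.24 (adjusted p = 0.201). The mean of these 17 NK markers was 6.37 to 6.52 in normal tissue, 6.46 to 7.88 in Rb/p53 tumours and 6.42 to 7.41 in p53 tumours. The T cell genes that fell most were Cd3g, a T cell receptor complex chain, by 2.06 (adjusted p = 0.000287), the adhesion gene Cd2, by 0.74 (adjusted p = 0.000272), and Themis, a T cell signalling gene, by 0.34 (adjusted p = 0.0426). The mean of these 18 T cell markers was 7.33 to 7.50 in normal tissue and 6.98 to 7.34 in Rb/p53 tumours, and the highest tumour, Ad-Cre replicate 2, overlapped the normal range. The part of these markers in the granzyme levels was not tested.

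In p53 tumours 1 of 17 NK markers was higher, again Klrb1b, by 2.82 ± 0.59 (SE, adjusted p = 0.00256, limma). Of 18 T cell markers 2 were higher, Cd8a by 0.65 ± 0.13 (adjusted p = 0.00194) and Cd8b1 by 0.43 ± 0.14 (adjusted p = 0.0355). Their products together form the co-receptor of cytotoxic T cells. The shares higher were 5.88% of the NK and 11.1% of the T cell markers, near the 8.34% of all genes. Between the tumour genotypes 0 of these markers passed, where 0% of all genes were higher and 0.00502% lower. The list drawn up for tissue-resident lymphocytes, whose genes are not all specific to them, gave 2 higher and 3 lower of 11 in Rb/p53 tumours. These are 18.2% and 27.3%, beside 14.2% and 13.4% of all genes. The median difference was -0.41 beside 0.03 for all genes. The higher genes were Rgs1, a regulator of G protein signalling, at 1.63 ± 0.36 (adjusted p = 0.00264), and Cd69, a retention gene of resident lymphocytes, at 0.93 ± 0.30 (adjusted p = 0.0271). The lower genes were Rora, a nuclear receptor of innate lymphoid cells, which fell by 0.87 (adjusted p = 0.00690), and the integrin gene Itgae, which fell by 0.49 (adjusted p = 0.00436). Xcr1, also lower, is a chemokine receptor gene of dendritic cells rather than of lymphocytes, and it fell by 0.41 (adjusted p = 0.00517).

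Mast cell and basophil markers, which include proteases encoded beside the granzymes, were lower in tumours. Of all genes, 14.2% were higher and 13.4% lower in Rb/p53 tumours, and 8.34% and 12.1% in p53 tumours. Of 12 mast cell and basophil markers 8 were lower (66.7%) and 0 higher in Rb/p53 tumours, with a median difference of -1.13. In p53 tumours 7 of these markers were lower (58.3%). In Rb/p53 tumours Cpa3, the mast cell carboxypeptidase, fell by 4.33 (adjusted p = 0.0012, limma). Mcpt4, already described, fell by 3.94 (adjusted p = 0.000141) and Kit, the stem cell factor receptor, by 1.71 (adjusted p = 0.000237). The mean of these markers was 8.02 to 8.28 in normal tissue and 6.24 to 8.54 in Rb/p53 tumours, with the highest in Ad-Cre replicate 2. Of 13 neutrophil markers 7 were higher and 1 lower, and of 12 macrophage markers 5 were higher and 0 lower in Rb/p53 tumours, and 11 of 12 macrophage markers were higher in p53 tumours. Of 11 B and plasma cell markers 1 was higher and 6 were lower in Rb/p53 tumours, led by Jchain, the immunoglobulin joining chain, at -4.12 ± 0.76 (adjusted p = 0.000621). Of 8 plasmacytoid dendritic cell markers 1 was higher and 1 lower in Rb/p53 tumours, 12.5% each and near the shares of all genes. Of 8 other granzyme genes and locus proteases 2 were lower (25%), Mcpt4 and the chymase gene Cma1.

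Genes whose levels were most like the granzymes were taken from the 2097 genes with an SD of at least 0.5 over the 9 Rb/p53 tumours, with the Pearson correlation over those tumours as the measure and no test. Closest to the mean of Gzmc, Gzmd, Gzme, Gzmf and Gzmg were Mdk, the growth factor midkine, at r = 0.82, Avpi1 at 0.79, Nr1d1, a nuclear receptor of the circadian clock, at 0.79, Sh2d1b2, an adaptor of NK cells, at 0.78, and Dbp, a clock-controlled transcription factor, at 0.77. Closest to Gzmb were Zcwpw1 at 0.93, Tmem45a at 0.90, Sgcd, a sarcoglycan, at 0.89, Spry3 at 0.88 and Emx2, a homeobox gene, at 0.88. Both sets come from 9 arrays and from a choice among 2097 genes, so correlations of this height describe these tumours only. Sh2d1b2 read 5.81 to 8.02 in Rb/p53 tumours, 5.47 to 6.34 in p53 tumours and 5.31 to 5.58 in normal tissue. Avpi1 read 9.35 to 11.29 in Rb/p53 tumours, 9.44 to 9.82 in p53 tumours and 8.66 to 8.92 in normal tissue. In both genes all Rb/p53 tumours were thus above normal tissue. The Rb/p53 ranges of Nr1d1 and Dbp overlapped those of normal tissue. Mdk, at 8.08 to 9.58 in Rb/p53 tumours, met its normal range of 9.56 to 10.01 only at the upper end.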

How the data were processed

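The log2 levels of 35556 probe sets on 17 arrays were used as deposited. The authors made these log2 values by RMA in Partek 5.6, per the submitters' processing notes. RMA subtracts background, equalises arrays and combines the probes of a set; its further settings and the build were not stated. The number of arrays limits precision.

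Only probe sets with exactly 1 gene symbol counted as genes (21789 sets; 1621 had several symbols, 12146 none here), and per symbol the set with the highest mean was kept (19938 genes). Tests used limma 3.58.1 in R 4.3.3 (lmFit and eBayes) with Benjamini-Hochberg adjustment over all genes and a threshold of 0.05; correlations used exact permutation tests in Python 3.11.15. Tumours were compared with normal tissue on all 17 arrays in 3 groups, tumour groups on the 12 tumour arrays, and transplants on 7.

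The members, lists and tests were chosen with earlier results of these data known. Named are all 9 members, Ncr1, Cd3e, Serpinb9, Ctsc, Nkg7, Srgn, Il2rb, Tbx21, up to 3 called genes of a list with the largest difference, and the 5 genes most like each of 2 patterns; Klrd1, Klrk1, Gzmn, Atp12a, Itgae and Xcr1 were added after their values were seen. Promoter windows come from RefSeq (GRCm38.p6), and motifs were chosen after results were known. Alternatives were other eBayes settings, array weights, cyclic loess, a filter on low levels, averaged probe sets, each array left out and p53 replicate 3 moved.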

Additional observations from a re-analysis of the deposited data

Results flagged for a closer look

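Among the 7 MMTV-Cre Rb/p53 tumours, replicate 3 stood far above the others in Ncr1, at 8.75, with a gap to the next tumour of 0.652 of the group's range, and in Nkg7, at 9.67, with a gap of 0.739 of the range. Chance marks about 1 in 20 groups in this way, and 34 groups were examined (17 genes in each of 2 groups).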

How the results depend on the processing

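The members' median difference from normal tissue kept its sign under every alternative tried. For the 5 locus granzymes Gzmc, Gzmd, Gzme, Gzmf and Gzmg, all 9 Rb/p53 tumours lay above every normal sample. Leaving out 1 array therefore could not turn their direction or, as they are 5 of 9 members, that of the Rb/p53 median. With 1 array left out their differences were 3.48 to 3.82 for Gzmc, 3.78 to 4.23 for Gzmd and 2.07 to 2.51 for Gzme. They were 2.98 to 3.39 for Gzmf and 2.02 to 2.47 for Gzmg. Rb/p53 tumours were also limited to MMTV-Cre replicates 1 and 2, which carry no transplant label. In that fit 10 of the 179 pathway and marker genes were higher and 27 lower than in normal tissue. Of all genes, 3.38% were higher and 6.68% lower there, and that fit has fewer tumours. With p53 replicate 2 left out and replicate 3 moved to Rb/p53, chosen after seeing the data, 14 were higher and 24 lower in the 1 remaining p53 tumour, which is assumed to vary like the other groups. With p53 replicate 3 moved to Rb/p53, 1 of the 179 was higher and 10 lower in Rb/p53 than in p53 tumours. Of all genes, 5.58% were higher and 4.67% lower in the same fit. Leaving out single arrays gave 0 to 1 higher and 0 to 10 lower between the genotypes, the upper counts without p53 replicate 3, 0 to 2 higher between Ad-Cre and MMTV-Cre tumours, and 0 to 3 lower between transplanted and other tumours. In that last comparison the sign turned for Gzme (-0.49 to 0.39), Gzmf (-0.54 to 0.28) and Prf1 (-0.06 to 0.22), none of which passed in any of these fits. Of the 36 pairs of members 4 passed among the 7 transplants, and 0 passed without the 3 tumours lowest in Gzmd to Gzmg, an alternative also chosen after seeing the data; both have fewer tumours, and with 6 a single pair cannot fall below the threshold. The causes of the other changes were not tested. No paired analysis was possible because replicate numbers follow the order of accession and pair no samples.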

Other observations

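Mcpt2, which encodes a protease of mucosal mast cells, was high in single tumours of different groups. Over the 9 Rb/p53 tumours its median was 4.88 and its highest level 11.17, in Ad-Cre replicate 2. Among the p53 tumours replicate 1 read 9.12 and the other 2 read 4.98 and 5.32, and the normal samples read 4.56 to 4.87. It was singled out after its values were seen and was not tested.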
